A study of Mus musculus with 19 samples.

Results

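Imprinted genes are expressed from the copy inherited from a single parent, and the choice of copy is carried through cell divisions by DNA methylation at control regions that were marked in the germ line. Several of them restrain growth and cell cycle entry, and a number are known for high expression in quiescent hematopoietic stem cells. The 10 genes described here were listed by name as imprinted genes linked to stem cell quiescence, without a threshold on their values, and were read in all 19 libraries among 54352 counted genes. They are the noncoding RNA H19 and the growth factor gene Igf2 of one locus, the noncoding RNAs Meg3, Rian and Mirg of the Dlk1-Meg3 cluster, the cyclin-dependent kinase inhibitor Cdkn1c, the insulin and IGF receptor adaptor Grb10, the growth-restraining protein gene Ndn, the zinc finger gene Peg3, and Gnas, which encodes the stimulatory G protein alpha subunit.

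The strain in the labels is C57BL6. Per the study's methods, hematopoietic stem cells of C57BL6J donors were transduced with a doxycycline-inducible shRNA and transplanted into sublethally irradiated recipients of both sexes that carried CD45.1 and the Kit mutation w41. The animals were left to reconstitute for 10 weeks and were fed doxycycline for 6 days. Cells that reported shRNA expression with zsGreen were sorted from bone marrow as common myeloid progenitors (CMPs) or as the lineage-negative, Sca-1-positive, c-Kit-positive stem and progenitor population, called KLS in the labels and LSK here. Each carried sh10 or sh20, which target the lncRNA Spehd, or a control shRNA against Renilla luciferase. There were 4 CMP Renilla, 3 CMP sh10, 2 CMP sh20, 4 LSK Renilla, 3 LSK sh10 and 3 LSK sh20 libraries, so that doxycycline and an expressed shRNA were common to all 6 groups. Beyond the replicate letters nothing states that the libraries of a group are from separate animals, and p-values measure the spread between these libraries.

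No gene counted is named Spehd, and the knockdown itself was not measured here. The guide strands of both Spehd shRNAs are shown because they define the groups, written as DNA with bases 2 to 8, the seed, in capitals.
sh10: tACAAAGTcagcttttcctctc
sh20: tATGCTATgacaacccagggca
The complement of the sh10 seed, ACTTTGT, occurred on the sense strand in an annotated transcript of 5 of the 10 genes, Meg3, Mirg, Rian, Grb10 and Peg3, and in 38.4% of 13170 genes that averaged 10 counts or more. That of sh20, ATAGCAT, occurred in none of the 10 and in 19.1% of those genes. Such a match is a stretch of letters and no measured site.

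Libraries held from 3647318 to 5965155 counts on genes (median 4918631), so that 3 counts, the limit that a count of 0 allows, corresponded to 0.503 to 0.823 CPM, the counts of a library scaled to a total of 1000000. This limit covers counting error only. All 5 CMP libraries with a Spehd shRNA were deeper, at 4918631 or more, than the 4 CMP Renilla libraries, at 4314959 or fewer. Of 20 stem cell markers, 15 were lower and 1, Vwf, was higher in CMP than in LSK (edgeR), where 38.0% of all genes passed. The 15 went in the direction of the sort labels. Of 16 myeloid progenitor markers 7 were higher and 8 lower, with a median log2 fold change of -0.18. LSK sh10 B stood apart, with a median absolute deviation of 0.465 (log2) from the other libraries of its group over genes whose counts averaged 50 or more, against 0.131 to 0.311 in the others. The B cell markers Cd79a, Ms4a1 and Ebf1 summed to 77.1 CPM in CMP sh20 C and to 0.845 CPM in CMP sh20 B. T cell markers summed to between 18.96 and 37.7 CPM in CMP Renilla, 35.4 and 69.8 CPM in CMP sh20 and 0.201 and 1.89 CPM in CMP sh10, and to at most 5.60 CPM in any LSK library. The 4 red cell markers summed to between 23.7 and 66.7 CPM in CMP Renilla and 4.22 and 8.62 CPM in LSK Renilla. With sh10 they were at 11.5 to 23.7 CPM in CMP and 5.41 to 35.2 CPM in LSK, and with sh20 at 30.4 to 49.9 and 3.94 to 80.04 CPM. The part of these cells in the differences between CMP and LSK was not tested.

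The counts were made by strand from a kit that does not mark strand. Of 131 genes that lie wholly within exons of a gene on the other strand, and would hold almost no counts if strand were ignored, 3 were at 0 in every library, and their counts per exonic base were 0.928 of those of the other gene (median). A gene and its antisense partner therefore cannot be told apart where they overlap, and a share of the reads of each gene was not counted on it. Among the members, Cdkn1c shares 30.7% of its exonic bases with Gm44732 (2106 and 913 counts over all libraries) and Gnas 13.1% with Gm20721 (30817 and 27859 counts).

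The noncoding RNAs and growth factors of the list were nearly absent. H19, Igf2, Meg3, Mirg, Rian and Peg3 never exceeded 3 counts in a library. Together they gave 35 counts over all 19 libraries, and 88 of their 114 values were 0. H19 (chr7:142575529-142578143, minus strand, GRCm38), the noncoding RNA that hosts a growth-restraining microRNA, had 1 count in LSK sh10 A and 1 in LSK sh20 B. Igf2 (chr7:142650766-142666816, minus strand), which encodes insulin-like growth factor 2, had 1 count in CMP Renilla B and 1 in LSK sh10 B. Each of these genes thus had a single count in each of 2 libraries, which belonged to different groups.

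Among the 3 noncoding RNAs of the Dlk1-Meg3 cluster, Meg3 (chr12:109541001-109571726, plus strand) had the most counts. Its counts were 3, 2 and 1 in LSK sh10, 0 in all LSK sh20 libraries, 1, 0, 0 and 1 in LSK Renilla, 2, 0 and 0 in CMP sh10, 0 in both CMP sh20 libraries and 0, 1, 1 and 0 in CMP Renilla. Rian (chr12:109603940-109661716, plus strand), which hosts small nucleolar RNAs, was at 0 in all 8 Renilla libraries and had 0, 1 and 1 counts in LSK sh10, 1, 1 and 2 in LSK sh20, 2, 0 and 0 in CMP sh10 and 0 and 2 in CMP sh20. The exact permutation p for Rian with Spehd knockdown in LSK, two-sided and over 210 arrangements of 6 and 4 libraries, was 0.0429 before any adjustment, at levels that all lay under the limit that a count of 0 allows. Mirg (chr12:109729764-109749460, plus strand), a host of microRNAs, had 1 count in each of CMP sh10 C, CMP Renilla B and LSK Renilla A. The other exact permutation p-values of these 6 genes for Spehd knockdown in either cell type were between 0.4 and 1. Dlk1, the protein-coding partner of the cluster, had 0 to 16 counts in a library and did not differ between CMP and LSK (log2 fold change 0.18 ± 0.68, SE; edgeR adjusted p = 0.862). The microRNAs that these transcripts host were not measured.

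Peg3 (chr7:6703892-6730431, minus strand) had 3 counts in LSK sh10 C and 1 in each of LSK sh10 A, CMP sh10 B and CMP Renilla D. Usp29, its neighbour in the same imprinted domain, reached 17 counts in CMP sh20 B and had at most 5 in any other library. None of these 6 genes had enough counts for the reported edgeR fits, and they were not tested between cell types or for a single shRNA.

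**Figure D1:**
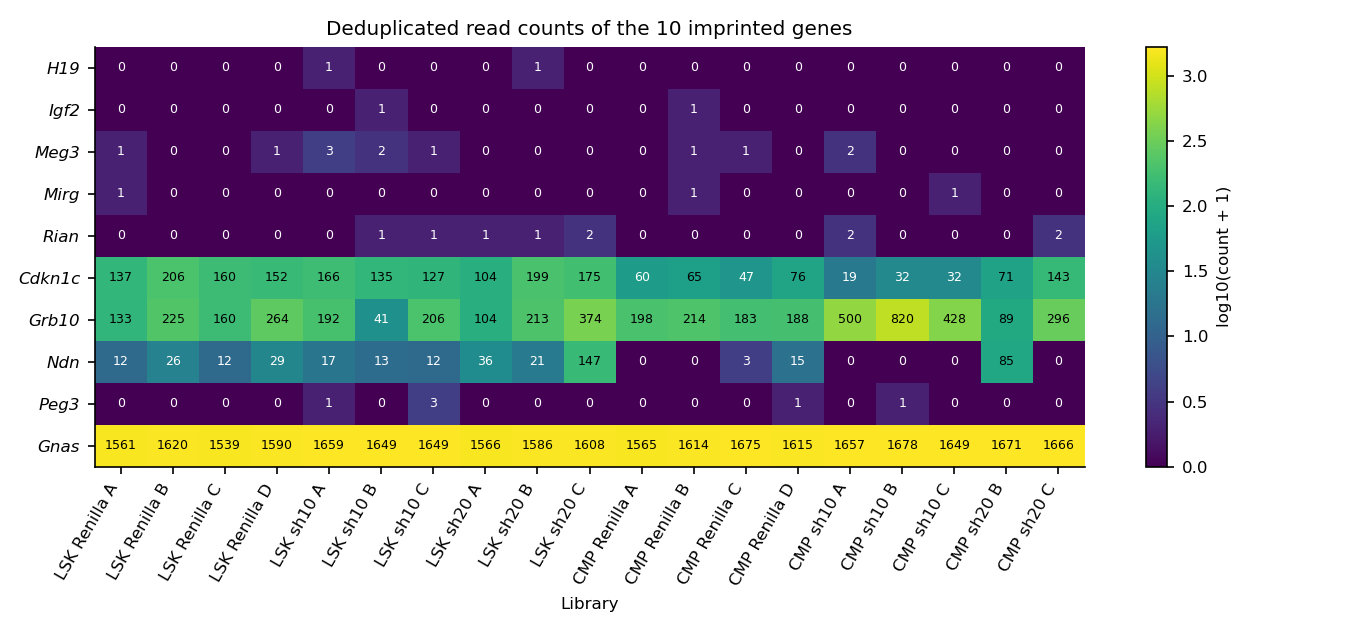
Read counts after duplicate removal for the 10 imprinted genes (rows) in the 19 libraries (columns, by group), with the count printed in each cell and the colour giving log10(count + 1). H19, Igf2, Meg3, Mirg, Rian and Peg3 stay at 0 to 3 counts, Ndn is at 0 in 6 of 9 CMP libraries, and Gnas keeps 1539 to 1678 counts throughout.

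The other 4 genes, Cdkn1c, Grb10, Ndn and Gnas, passed the filter on low counts in the fit of all libraries. Per kilobase of annotated exons, the mean level in LSK Renilla was 31.6 CPM for Gnas, 18.0 CPM for Cdkn1c, 4.77 CPM for Grb10 and 1.17 CPM for Ndn. The same order held in CMP Renilla, with 35.5, 7.49, 5.29 and 0.296 CPM per kilobase. In CMP sh10 Grb10, at 13.2 CPM per kilobase, stood above Cdkn1c, at 2.79.

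Cdkn1c (chr7:143458339-143461050, minus strand), which holds cells out of the cycle by inhibiting cyclin-dependent kinases, was the clearest of the 10 in its difference between cell types. It was at 28.9, 41.3, 43.5 and 32.7 CPM in LSK Renilla A to D and at 15.8, 15.8, 10.9 and 18.6 CPM in CMP Renilla A to D. These groups did not overlap, and the mean was 2.40 times higher in LSK (36.6 ± 6.94 CPM, SD, n = 4) than in CMP (15.3 ± 3.21 CPM, n = 4). With sh10 the levels were 29.2, 25.7 and 22.9 CPM in LSK and 3.99, 6.42 and 6.67 CPM in CMP, again without overlap and 4.56 times higher in LSK. With sh20 they were 20.5, 42.7 and 32.1 CPM in LSK and 12.004 and 25.0 CPM in CMP, and here the groups overlapped.

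In edgeR's quasi-likelihood test the log2 fold change of Cdkn1c, CMP against LSK, was -1.41 ± 0.19 (SE) over the mean of the 3 shRNAs (adjusted p = 2.1e-05). It was -1.26 ± 0.28 with Renilla shRNA (adjusted p = 0.00423), -2.18 ± 0.34 with sh10 (adjusted p = 0.000308) and -0.78 ± 0.36 with sh20, which did not pass (adjusted p = 0.157). Without CMP sh20 C the value with sh20 was -1.40 (adjusted p = 0.0368), but CMP sh20 B then stands alone and is assumed to vary like the other groups. The same holds wherever 1 of the 2 CMP sh20 libraries is left out below. Of all genes tested 38.0% passed in the mean over shRNAs, 19.8% with Renilla, 16.1% with sh10 and 14.6% with sh20. Of the 4 members tested, 2, 1, 2 and 0 passed in these comparisons. Calls over all genes also moved with single libraries. Without CMP sh10 B those with sh10 fell from 2424 to 1291. Without LSK sh10 B those with Renilla rose from 2979 to 4021 and those with sh20 from 2197 to 3083. In sorted bulk RNA, fewer cells that express a gene and less of its RNA per cell cannot be told apart.

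Of the 5 other imprinted genes listed between Kcnq1ot1 and Osbpl5 in the Cdkn1c domain that could be tested, 1 was lower and 1 higher in CMP, a share close to the 38.0% of all genes. Kcnq1ot1, the long antisense RNA that silences the domain on the paternal copy, was at 49.9 ± 14.3 CPM (SD, n = 10) in LSK and 48.5 ± 14.3 CPM (n = 9) in CMP, with a log2 fold change of 0.0061 ± 0.17 (SE, edgeR adjusted p = 0.987). The transporter gene Slc22a18, next to Cdkn1c, was at -0.43 ± 0.26 (adjusted p = 0.202). Phlda2, a growth-restraining gene of the placenta, had a log2 fold change of 0.14 ± 0.24 (adjusted p = 0.674). Nap1l4, a histone chaperone, was higher in CMP by 0.17 ± 0.04 (adjusted p = 0.00136). Osbpl5, a lipid transfer protein gene at the edge of the same domain, was lower in CMP, at 20.7 ± 5.12 against 54.9 ± 19.9 CPM (log2 fold change -1.50 ± 0.18, edgeR adjusted p = 5.21e-06).

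Within CMP, Cdkn1c differed between the shRNAs. All 3 CMP sh10 libraries lay below all 4 CMP Renilla libraries, and the mean was 2.68 times lower (5.69 ± 1.48 against 15.3 ± 3.21 CPM, SD). The log2 fold change of -1.42 ± 0.35 (SE) missed the threshold in edgeR (adjusted p = 0.0675) and passed it in DESeq2 (adjusted p = 0.00906) and in edgeR without CMP sh20 B (adjusted p = 0.0197) or without CMP sh20 C (adjusted p = 0.0227). With sh20, at 18.5 ± 9.22 CPM, the groups overlapped (log2 fold change 0.29 ± 0.37, adjusted p = 0.674). Between sh20 and sh10 the log2 difference was 1.72 ± 0.40, with an adjusted p of 0.0387 that rose to 0.123 without CMP sh10 A, 0.107 without CMP sh10 B, 0.0863 without CMP sh10 C, 0.0721 without CMP sh20 C, 0.0579 without CMP Renilla A and 0.0547 without CMP Renilla B. Over all genes 1.97% passed for sh10 against Renilla, 6.17% for sh20 against Renilla and 6.41% for sh20 against sh10. These shares rested on single libraries. As each CMP library was left out in turn, the calls ran from 9 to 1020 for sh10 against Renilla (272 in the reported fit), 430 to 3191 for sh20 against Renilla (853) and 84 to 3484 for sh20 against sh10 (886). The lowest counts came without CMP sh10 B (also without C for sh10 against Renilla), and without CMP Renilla B or D for sh20 against Renilla. The highest came without CMP sh20 C in all 3. With the log2 library total as a covariate no gene passed in these 3 comparisons, and the Cdkn1c difference between sh20 and sh10 had an adjusted p of 0.422.

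Other markers moved with the sh10 libraries. The 20 stem cell markers summed to between 1029 and 1397 CPM in CMP sh10 and between 1569 and 2323 CPM in CMP Renilla. With sh10 3 of the 19 that could be tested fell (edgeR), where 1.97% of all genes passed, the transcription factor genes Gata3 and Mycn among them. The median log2 fold change of these 19 was -0.786 against -0.014 over all genes. The 3 T cell markers Cd3e, Cd3d and Trbc2, summed above, were also lower in CMP sh10. The part of either in the Cdkn1c value was not tested. Genes of proliferation did not pass in this comparison, 0 of 20, with a median of 0.218 and 16 of 20 above 0. Their summed level did not overlap, at 4586 to 4734 CPM in CMP sh10 and 3888 to 4193 CPM in CMP Renilla, and its part in the Cdkn1c value was not tested.

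In LSK the levels of Cdkn1c with a Spehd shRNA, 28.8 ± 7.97 CPM (SD, n = 6), overlapped those with Renilla. The log2 fold change was -0.35 ± 0.22 (SE, edgeR adjusted p = 0.998). Pooled knockdown in CMP gave -0.48 ± 0.49 (adjusted p = 0.701). The difference between the knockdown effects of the cell types was -0.22 ± 0.36 (adjusted p = 0.851).

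**Figure D2:**
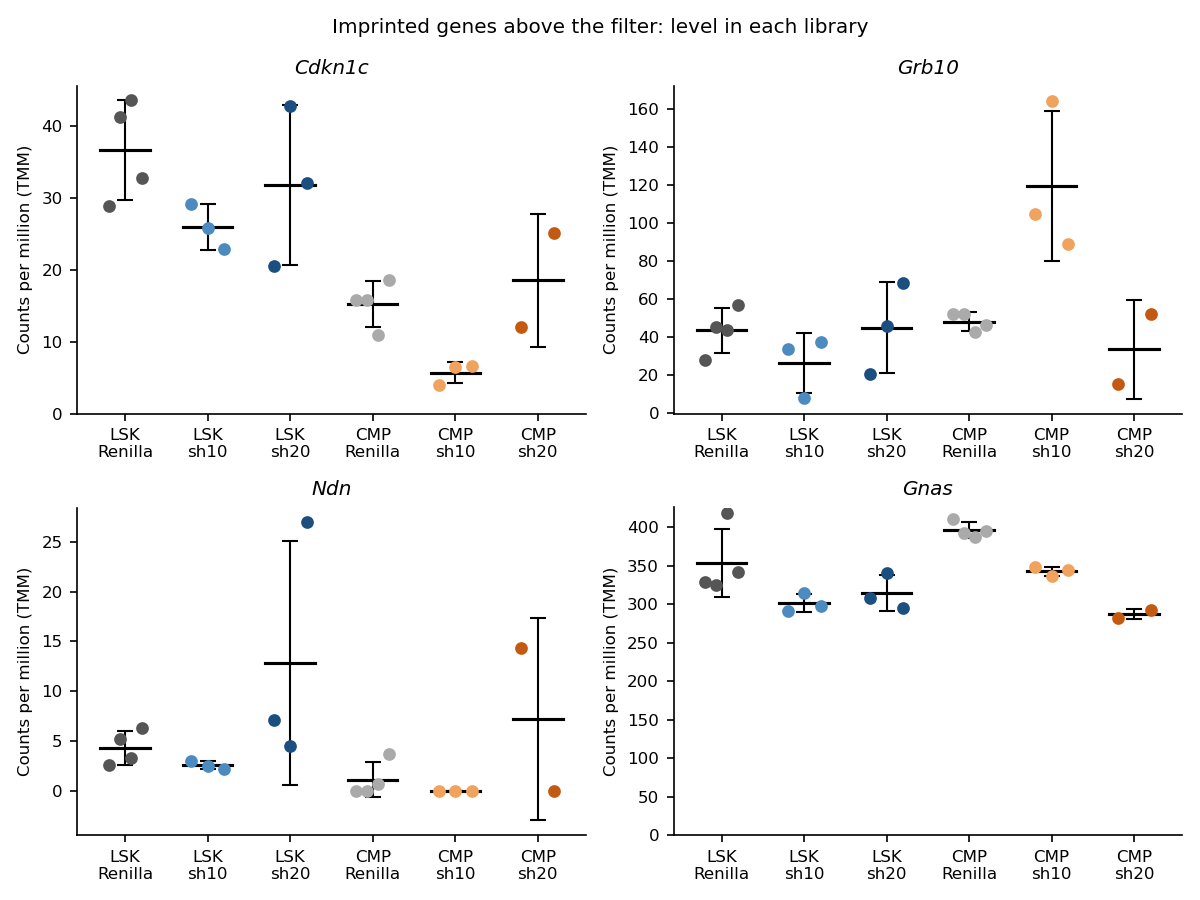
TMM-normalized CPM of Cdkn1c, Grb10, Ndn and Gnas in each library (points), with the mean (line) and SD (bar) of each of the 6 groups. Cdkn1c lies between 3.99 and 6.67 CPM in CMP sh10 and between 28.9 and 43.5 CPM in LSK Renilla, and Grb10 is at 89.3 CPM or more in the 3 CMP sh10 libraries and at 68.6 CPM or less elsewhere.

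Grb10 (chr11:11930508-12038683, minus strand), whose product binds the insulin and IGF1 receptors and dampens their signalling, had its highest levels in CMP with sh10. It was at 105, 164 and 89.3 CPM in CMP sh10 A to C, at 15.05 and 51.8 CPM in CMP sh20 B and C, and at 52.0, 52.0, 42.4 and 46.0 CPM in CMP Renilla A to D. All 3 sh10 libraries were above all other CMP libraries, whereas the sh20 libraries lay on either side of the lowest Renilla library. In LSK it was at 33.8, 7.82 and 37.1 CPM with sh10, 20.5, 45.7 and 68.6 CPM with sh20 and 28.0, 45.1, 43.5 and 56.9 CPM with Renilla, and these 3 groups overlapped. The lowest value, of LSK sh10 B, belongs to the library that stood apart.

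The mean of Grb10 in CMP sh10 (119.6 ± 39.7 CPM, SD, n = 3) was 2.49 times that in CMP Renilla (48.1 ± 4.76 CPM, n = 4). The log2 fold change of 1.31 ± 0.35 (SE) missed the threshold in edgeR (adjusted p = 0.0782). It passed in DESeq2 (adjusted p = 0.00497) and in edgeR without CMP sh20 B (adjusted p = 0.00654) or CMP sh20 C (adjusted p = 0.00695). With sh20 the log2 fold change was -0.51 ± 0.42 (adjusted p = 0.493), and the test of sh20 against sh10 gave -1.82 ± 0.45 (adjusted p = 0.0451). That call was lost without CMP sh10 A (adjusted p = 0.109), CMP sh10 B (0.134) or CMP sh10 C (0.0773), and without CMP Renilla A (0.0663), B (0.0611), C (0.0606) or D (0.0619), and with the log2 total as a covariate (0.643). With both Spehd shRNAs pooled the value in CMP was 0.82 ± 0.50 (adjusted p = 0.468).

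Between cell types, Grb10 rose in CMP with sh10. There the mean was 4.56 times that in LSK and the groups did not overlap (log2 fold change 2.18 ± 0.52, edgeR adjusted p = 0.00813). The values were 0.15 ± 0.44 with Renilla (adjusted p = 0.860) and -0.43 ± 0.57 with sh20 (adjusted p = 0.668). Over the mean of the 3 shRNAs Grb10 was at 0.64 ± 0.29 (adjusted p = 0.0958), which passed without CMP sh20 B (adjusted p = 0.0264) or LSK sh20 C (adjusted p = 0.0406). The test of the sh10 effect in CMP against that in LSK gave a log2 difference of 2.04 ± 0.67 and did not pass (edgeR adjusted p = 0.605), where 0.0199% of all genes passed. In the same test for sh20 0.584% and for both shRNAs together 0.0531% of all genes passed, and none of the 4 members. These counts, 88 genes for sh20 and 8 for both shRNAs, rested on single libraries. Without LSK Renilla A they fell to 45 and 0. Without LSK sh10 B the count for sh20 rose to 158. Both counts were higher without CMP sh20 C, where CMP sh20 B stands alone.

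Grb10 has promoters that are used from different parental copies in different tissues. Of its 2 promoter windows in RefSeq (GRCm38.p6, 250 bases before to 50 after a start), the upstream one at chr11:12037371-12037670 holds 45 CG pairs, a number reached by 1.93% of the 32851 windows in the table, whose median is 7. The other, at chr11:12027922-12028221, holds 9, and 45.8% of windows hold as many. The upstream window is shown on the minus strand, with CG pairs in capitals, because it is the richest in CG pairs among the 16 windows of the 8 members in the table. Neither methylation nor the use of single promoters was measured here.
Grb10 upstream window: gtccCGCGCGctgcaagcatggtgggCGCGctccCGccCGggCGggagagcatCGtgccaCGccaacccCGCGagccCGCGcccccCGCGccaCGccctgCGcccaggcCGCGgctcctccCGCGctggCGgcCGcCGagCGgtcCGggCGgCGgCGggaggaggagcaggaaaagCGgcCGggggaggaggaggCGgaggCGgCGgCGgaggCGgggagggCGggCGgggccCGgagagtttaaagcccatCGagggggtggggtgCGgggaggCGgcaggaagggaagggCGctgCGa

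**Figure D3:**
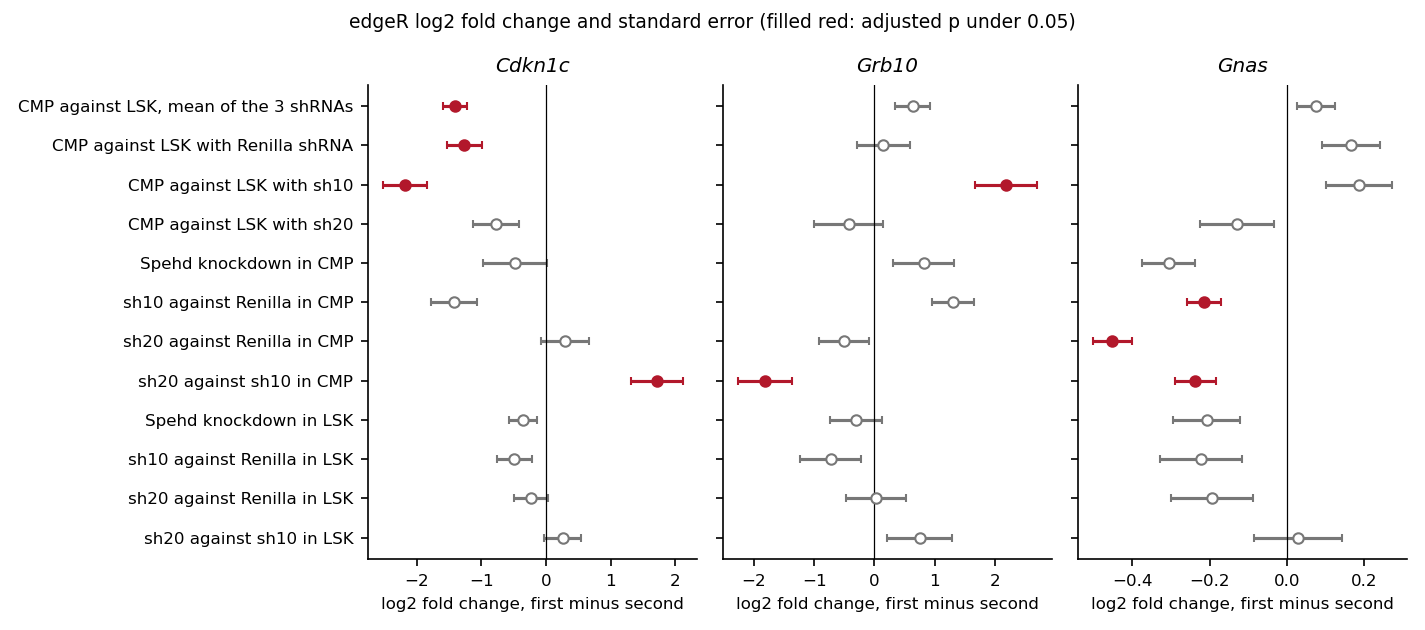
edgeR log2 fold change (points) and standard error (bars) of Cdkn1c, Grb10 and Gnas in 12 comparisons, the first named group minus the second, with filled red points past an adjusted p of 0.05 and a separate scale for each gene. Cdkn1c lies at -1.41 and Grb10 at 0.64 for CMP against LSK over the 3 shRNAs, and in CMP sh20 minus sh10 is 1.72 for Cdkn1c and -1.82 for Grb10.

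Ndn (chr7:62346569-62350262, plus strand), which encodes necdin, a protein that restrains proliferation, was detected in every LSK library and in 3 of 9 CMP libraries. Its counts were 12, 26, 12 and 29 in LSK Renilla, 17, 13 and 12 in LSK sh10 and 36, 21 and 147 in LSK sh20. They were 0, 0, 3 and 15 in CMP Renilla, 0 in all 3 CMP sh10 libraries, and 85 and 0 in CMP sh20 B and C. Most CMP libraries thus lay below every LSK library, and CMP sh20 B and CMP Renilla D reached into the LSK range. The mean was 6.34 ± 7.43 CPM in LSK (SD, n = 10) and 2.08 ± 4.76 CPM in CMP (n = 9).

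Ndn was lower in CMP in edgeR over the mean of the 3 shRNAs (log2 fold change -3.14 ± 0.996, SE, adjusted p = 0.0213), a fitted size that depends on the prior count because one group is at 0. The ratio of the means was 3.05. Without CMP sh20 B, which alone held 85 of the 103 counts in CMP, the fitted value was -5.82 (adjusted p = 0.00139). With shRNA and letter as replicate block the call was lost (-3.78 ± 1.42, adjusted p = 0.0733). Within single shRNAs Ndn did not pass in edgeR, with an adjusted p of 0.269 with Renilla (log2 fold change -1.95 ± 1.17), 0.0604 with sh10 and 0.732 with sh20 (-0.84 ± 1.35). With sh10 the LSK mean of 2.54 CPM was at least 4.28-fold higher than the limit of 3 counts per library in CMP, where all 3 libraries were at 0.

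Ndn was listed too low in CMP to enter the pooled knockdown fit, and an exact permutation test, two-sided over 126 arrangements of 5 and 4 libraries, gave p = 1. In LSK the levels with sh20 were 7.08, 4.51 and 26.9 CPM and those with sh10 2.99, 2.48 and 2.16 CPM, without overlap. That difference did not pass in edgeR (log2 2.30 ± 0.66, adjusted p = 0.281) and passed in DESeq2 (adjusted p = 0.0482). Without LSK sh20 C it was 1.14 ± 0.52 in edgeR (adjusted p = 0.534). The 5 granulocyte markers separated the same groups, at 45.9 to 266.1 CPM in LSK sh10 and 2.93 to 6.50 CPM in LSK sh20, with 4.22 to 269.9 CPM in LSK Renilla, and their part in the Ndn value was not tested. Pooled knockdown in LSK gave 0.81 ± 0.72 (edgeR adjusted p = 0.998), a value that turned to -0.16 without LSK sh20 C.

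Other genes of the Ndn domain were also uneven among libraries. CMP sh20 B, the CMP library with the most Ndn counts, had 8 counts of Magel2, a neighbouring single-exon gene, where no other library had more than 2. Mkrn3, a ring finger gene next to it, was at 1 and 0 counts in CMP sh20 and at 6 to 21 in CMP Renilla. It fell with sh20 in CMP (log2 fold change -4.87 ± 1.01, edgeR adjusted p = 0.0265), a fitted size that rests on these counts. In LSK sh20 it was at 0, 0 and 15 counts. Snrpn, the spliceosome gene that borders the control region, had 0 to 9 counts. Magel2 and Snrpn were chosen after their values were seen. The Ndn promoter window (RefSeq, GRCm38.p6, chr7:62348027-62348326, plus strand) is shown as that of the member whose detection was most uneven between cell types. It holds 11 CG pairs, in capitals, and 41.4% of all windows hold as many.
Ndn window: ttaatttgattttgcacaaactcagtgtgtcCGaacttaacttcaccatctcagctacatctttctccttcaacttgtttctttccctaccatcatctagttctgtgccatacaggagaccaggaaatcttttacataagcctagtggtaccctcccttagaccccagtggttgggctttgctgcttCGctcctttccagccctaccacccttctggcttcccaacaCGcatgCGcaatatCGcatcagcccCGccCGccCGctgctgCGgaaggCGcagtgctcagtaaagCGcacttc

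Gnas (chr2:174284320-174346744, plus strand), through which hormone receptors raise cyclic AMP, was the most abundant member and kept almost the same count in every library. It had 1561, 1620, 1539 and 1590 counts in LSK Renilla, 1659, 1649 and 1649 in LSK sh10, 1566, 1586 and 1608 in LSK sh20, 1565, 1614, 1675 and 1615 in CMP Renilla, 1657, 1678 and 1649 in CMP sh10 and 1671 and 1666 in CMP sh20. The highest count was 1.09 times the lowest, whereas the library totals spanned a ratio of 1.64. The variance of the Gnas counts within groups was 0.532 of the mean count, below the value of 1 that counting alone gives. The median of this ratio was 15.7 over the 970 genes with a mean of 1000 to 2500 counts, and 10 of these, Gnas included, had a ratio no higher than that of Gnas. Duplicate reads had been removed before counting, and the part of that step in these counts was not tested.

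On the CPM scale, Gnas accordingly followed the library total. The Pearson r of its log2 CPM with the log2 total was -0.949 over the 19 libraries, and -0.957 after the group means were taken out, a description in which both measures share the total. In CPM, Gnas fell with sh10 in CMP (342.7 ± 5.66 against 396.7 ± 10.2 CPM with Renilla, SD; log2 fold change -0.21 ± 0.04, SE, edgeR adjusted p = 0.0463) and with sh20 (287.2 ± 6.57 CPM; -0.45 ± 0.05, adjusted p = 0.0075). sh20 lay below sh10 by -0.24 ± 0.05 (adjusted p = 0.036). Neither fall passed with the log2 total as a covariate, where the values were -0.048 for sh10 and -0.17 for sh20. With the letter as replicate block neither fall passed either. The call with sh10 was also lost without any 1 CMP sh10 or CMP Renilla library (adjusted p from 0.0567 to 0.201), and that of sh20 against sh10 without CMP sh10 A (0.118), B (0.0952) or C (0.0840), CMP sh20 B (0.102) or CMP Renilla D (0.0534). As raw counts, the 5 CMP libraries with a Spehd shRNA (1649 to 1678) overlapped the 4 with Renilla (1565 to 1675). Between CMP and LSK Gnas did not pass (log2 fold change 0.074 ± 0.049, adjusted p = 0.258).

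**Figure D4:**
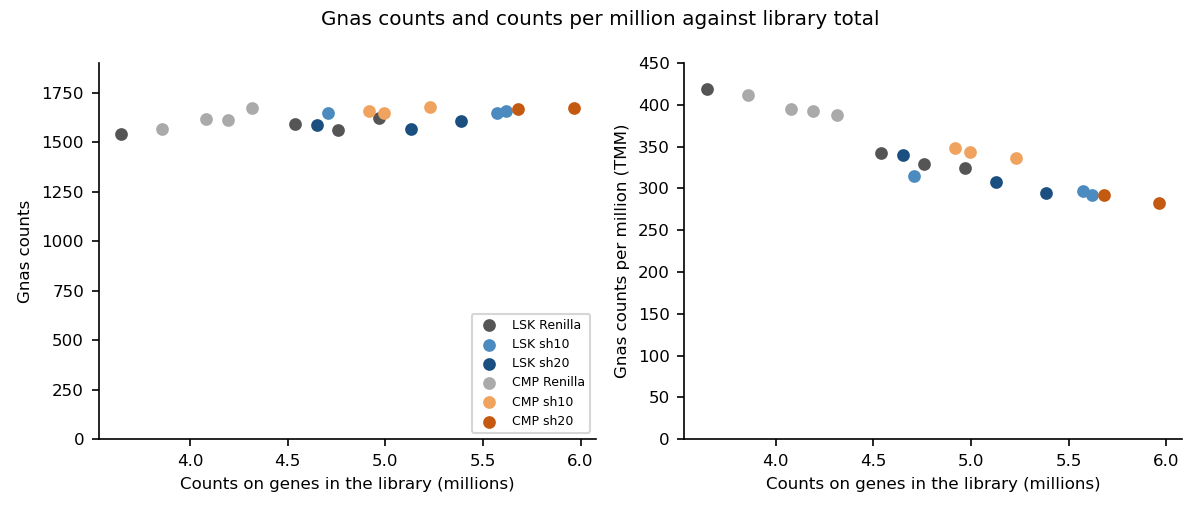
Gnas counts (left) and TMM-normalized CPM (right) against the counts on genes of each library, in units of 1000000 counts, with 1 point per library and the colour giving the group. Counts stay between 1539 and 1678 while the CPM value falls from 418.7 in the library with the lowest total to 282.5 in that with the highest.

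With both Spehd shRNAs as 1 group, edgeR called 0.116% of the 12912 genes tested in CMP, 15 genes, and 0 of the 3 members tested. That count changed with the setting, to 882 genes with DESeq2 and 328 with upper quartile normalization in edgeR, and Gnas passed in both (adjusted p = 0.00554 and 0.042) at log2 fold changes of -0.30 and -0.36. With the log2 total as a covariate edgeR called 0. In LSK edgeR called 0% of 13441 genes, with 492 at an unadjusted p under 0.05, and DESeq2 also called 0. The single shRNAs in LSK likewise gave 0% for sh10, for sh20 and for sh20 against sh10, with 457, 1152 and 1268 genes at an unadjusted p under 0.05 in edgeR. DESeq2 called 3, 195 and 256 genes in these.

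Over the 19 libraries, the genes whose log2 CPM followed a member most closely, among the 10484 genes that averaged 50 counts or more, were Ldhb (Pearson r = 0.943), Eya2 (0.928) and Smim6 (0.913) for Cdkn1c. For Grb10 they were Zfp106 (0.881), Gk (0.871) and Ythdc2 (0.868). For Gnas they were Atp5a1 (0.994), Gm20721, its partner on the other strand (0.992), and Srsf2 (0.991). These values describe libraries that share cell type, shRNA and depth.

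Of 69 other imprinted genes, 4 were at 0 in every library, 19 in all never exceeded 3 counts and 27 averaged 50 counts or more. In CMP against LSK 42 could be tested, and 7 rose and 8 fell, a share of the tested close to the 38.0% of all genes. Their median log2 fold change was -0.111 against -0.007 over all genes. Which parental copy was expressed in these cells was not measured for any gene. Gatm, which makes the precursor of creatine, was at 254.4 ± 36.5 CPM in CMP and 146.4 ± 17.5 CPM in LSK (SD, n = 9 and 10) and did not overlap between them (log2 fold change 0.79 ± 0.08, SE, edgeR adjusted p = 7.29e-07). Pon2, a lactonase of membranes, was 0.49 ± 0.07 higher (adjusted p = 2.81e-05).

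Igf2r, the receptor that takes up and degrades IGF2, was at 24.8 ± 8.39 CPM in CMP and 12.1 ± 8.99 CPM in LSK (log2 fold change 1.23 ± 0.28, edgeR adjusted p = 0.00236). Its counts were 122, 181, 115, 156 and 215 in the CMP libraries with a Spehd shRNA and 65, 102, 83 and 48 in CMP Renilla. They did not overlap as counts, but the CPM values of CMP sh10 C (24.0) and CMP Renilla B (24.8) did, and pooled knockdown gave 0.72 ± 0.25 (adjusted p = 0.177). Nespas, an antisense RNA at the Gnas locus, had 4 to 35 counts in CMP and 0 to 4 in LSK (log2 fold change 3.57 ± 0.77, adjusted p = 0.00155). The library kit does not mark strand, so reads of Nespas and of the Gnas exons it overlaps cannot be told apart. Plagl1, a zinc finger regulator of other imprinted genes, was called higher in CMP (4.08 ± 1.08, adjusted p = 0.00776), with 143 counts in CMP sh20 C, the library with B cell markers, against 0 to 9 in all others.

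Among those lower in CMP, Atp10a, a phospholipid flippase gene, was at 53.2 ± 19.5 CPM against 134.2 ± 33.2 CPM in LSK (log2 fold change -1.43 ± 0.19, edgeR adjusted p = 1.94e-05). Peg13, a noncoding RNA, was 0.85 lower on the log2 scale (-0.85 ± 0.13, adjusted p = 9.38e-05), and Sgce, epsilon-sarcoglycan, was at -0.72 ± 0.15 (adjusted p = 0.00101). Ppp1r9a, which encodes neurabin, was at -1.71 ± 0.38 (adjusted p = 0.00195). Asb4, a ubiquitin ligase subunit known from the vasculature, had 0 or 1 count in every CMP library and 0 to 20 in LSK (fitted -3.75 ± 0.76, adjusted p = 0.000885). H13, a signal peptide peptidase, was at -0.24 ± 0.06 (adjusted p = 0.00341). Mest, the hydrolase gene expressed from the paternal copy, did not pass (-0.56 ± 0.41, adjusted p = 0.311).

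With knockdown, none of 35 of these genes passed in the pooled CMP fit (edgeR), where 0.116% of all genes did. In LSK none of 36 passed, where 0% of all genes did. With sh20 alone in CMP 4 of 38 passed, where 6.17% of all genes did, namely Mkrn3 as above, Herc3, a ubiquitin ligase, up by 1.25 ± 0.26 (edgeR adjusted p = 0.028), and the tetraspanin Cd81 and Nap1l4 down, at -0.28 ± 0.06 (0.0333) and -0.25 ± 0.06 (0.0422). With sh10 none of 38 passed, where 1.97% of all genes did. Between sh20 and sh10 3 of 38 passed, where 6.41% of all genes did, with Herc3 higher and Mkrn3 and the transporter Slc22a3 lower with sh20. With the log2 total as a covariate no gene passed in these comparisons of single shRNAs in CMP.

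**Figure D5:**
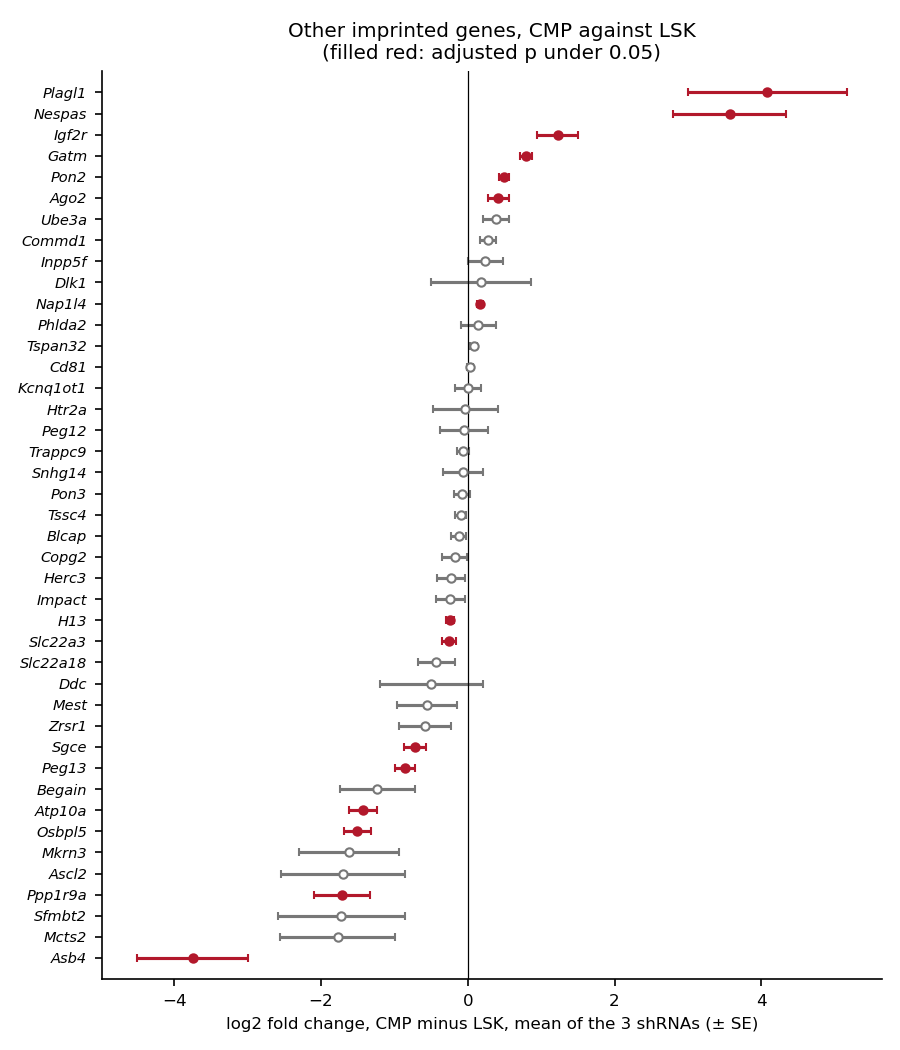
edgeR log2 fold change, CMP minus LSK over the mean of the 3 shRNAs, with its standard error, for the 42 of 69 other imprinted genes that could be tested. Filled red points mark the 15 with an adjusted p under 0.05, from Asb4 at -3.75 to Plagl1 at 4.08.

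Igf2 and Grb10 act on the IGF pathway, in which IGF1 and IGF2 activate the receptor Igf1r and, through Irs adaptors, PI3-kinase, Pdpk1, Akt1 and mTOR. Of 32 genes of this pathway 25 could be tested between cell types, and 4 rose and 2 fell in CMP, with a median of -0.055. Over all genes 38.0% passed. Igf1, the ligand, was at 1.65 ± 0.985 CPM in CMP and 9.31 ± 5.84 CPM in LSK (log2 fold change -2.45 ± 0.45, edgeR adjusted p = 0.000443). The binding protein Igfbp4 also fell, by 0.55 on the log2 scale (-0.55 ± 0.06, adjusted p = 3.64e-06). Pik3cb, a catalytic subunit of PI3-kinase, was 1.08 ± 0.17 higher in CMP (adjusted p = 0.000121), and Pdpk1, the kinase that activates Akt, 0.60 ± 0.11 higher (adjusted p = 0.000355). Irs2 and Tsc2 were the other genes that rose. With sh20 in CMP Tsc2, Mtor and Pdpk1 rose and Igfbp4, Grb2 and Akt1 fell, 6 of 24, where 6.17% of all genes passed. With the log2 total as a covariate no gene passed. With sh10 Tsc2 alone rose, 1 of 24, by 0.41 ± 0.08 (edgeR adjusted p = 0.037), where 1.97% of all genes passed and none did with that covariate.

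Of 17 genes that set or keep imprints 14 could be tested, with 1 higher and 5 lower in CMP than in LSK, where 38.0% of all genes passed, and a median of -0.068. Dnmt3b, a de novo DNA methyltransferase, was at 84.2 ± 14.5 CPM in CMP and 144.7 ± 20.1 CPM in LSK (log2 fold change -0.83 ± 0.10, edgeR adjusted p = 6.34e-06). Zfp57, the zinc finger protein that holds methylation at control regions, had 5 to 18 counts in CMP and 25 to 60 in LSK (-1.74 ± 0.30, adjusted p = 0.000253), without overlap. Tet1, Tet2 and Dnmt3a were also lower. Trim28, the corepressor that ZFP57 recruits, was 0.11 ± 0.04 higher in CMP (adjusted p = 0.0424). With sh20 in CMP 1 of 14 rose and 1 fell, where 6.17% of all genes passed. Trim28 fell by 0.43 on the log2 scale (-0.43 ± 0.05, edgeR adjusted p = 0.0093). Uhrf1, which brings the maintenance methyltransferase to new DNA, rose by 0.26 ± 0.06 (adjusted p = 0.0425). With sh10 Smchd1, a repressor of imprinted clusters, alone rose, by 0.68 ± 0.11 (edgeR adjusted p = 0.0255), where 1.97% of all genes passed. With the log2 total as a covariate no gene passed with either shRNA in CMP.

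Markers of stromal and endothelial cells, tissues in which several of the near-absent genes are known to be high, summed to between 169.2 and 410.3 CPM, highest in LSK sh10, and no more than 5 of the 16 were at 0 in a group. Cdh5 was at 0 in 4 of the 6 groups. Of the 11 that could be tested 5 fell and 1 rose in CMP against LSK, where 38.0% of all genes passed. The part of these cells in the values above was not tested.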

How the data were processed

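The authors aligned reads of SMART-Seq v4 libraries to mm10 with STAR, removed duplicates with Picard and counted reads on GENCODE genes with HTSeq; between 51.95 and 53.82% of uniquely aligned reads fell on no gene and stayed out of the totals. HTSeq counts by strand by default, and genes lying within exons of the other strand hold counts, as the report gives. The deposited whole-number counts, without normalization, were used; a deposited table of normalized values was not used here. Gene positions and exon lengths came from GENCODE vM21 (GRCm38), matched by symbol for 53775 genes. Counts were normalized by TMM and tested with edgeR 4.0.16 (quasi-likelihood test, filterByExpr at 10 counts and 15 in total, Benjamini-Hochberg adjustment over all genes tested, threshold 0.05), in all 19 libraries with 6 groups for cell types, and within each cell type for knockdown, with the Spehd shRNAs pooled or as separate groups. DESeq2 1.42.0 was an alternative. Log2 CPM used a prior count of 2. In simulated counts on the real means, the test of CMP against LSK recovered 85 of 100 genes changed by 1 on the log2 scale and 96 of 100 changed by 2, with 9 false calls among 14977 genes. Pooled knockdown recovered 60 and 92 in CMP (8 false calls among 12986) and 56 and 89 in LSK (14 among 13416). There both Spehd shRNAs had the same simulated effect, and the spread was estimated with the shRNAs as separate groups. Recovery where the shRNAs differ was therefore not tested. The members and lists were chosen with earlier results of these data known. Named were the 10 members, 8 partners, up to 12 other imprinted genes past the threshold in a comparison and up to 6 of each other list, and the 3 genes most alike each member with a mean of at least 50 counts.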

Additional observations from a re-analysis of the deposited data

Results flagged for a closer look

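Among 86 pairs of a named gene and a Renilla group of 4 libraries, 3 had a library far from the others, and chance gives about 1 in 20. Pik3cb was low in LSK Renilla D, at 4.99 log2 CPM. Akt1 was high in LSK Renilla C, at 8.73 log2 CPM. Tet1 was low in CMP Renilla C, at 3.58 log2 CPM. The effect of sh20 on Igfbp4 differed between the cell types, by -0.73 ± 0.15 (SE) on the log2 scale, CMP minus LSK (edgeR adjusted p = 0.0403), with levels in CMP of 152.5 and 139.6 CPM with sh20 against 234.1 to 294.6 CPM with Renilla.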

How the results depend on the processing

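The count of members past the threshold rested on single libraries and settings in CMP. For sh10 against Renilla, 1 in the reported fit, it was 2 with at least 10 counts in every library, 3 with DESeq2, 3 without CMP sh20 C, LSK sh10 B and LSK sh20 C together (chosen after seeing the data), and 0 with the log2 total as covariate or the letter as replicate block, and it ranged from 0 to 3 as each library was left out in turn. For sh20 against Renilla, also 1, it was 0 with either of the last 2 settings, 2 without those 3 libraries, and 1 to 2 in the leave-one-out fits. For sh20 against sh10 in CMP, 3, it was 0 with the covariate and 0 with the block, and 0 to 3 in the leave-one-out fits. With the covariate no gene at all passed in these 3 comparisons. The block left 5, 0 and 28 genes. Over all genes, sh10 against Renilla called 272 in the reported fit and 1209 with DESeq2. With at least 10 counts in every library it called 185 higher and 199 lower. For pooled knockdown in CMP, 0, it was 1 (Gnas) with upper quartile normalization, with DESeq2, with all 19 libraries in 1 fit and with the shRNAs as separate groups. Over all genes that comparison called 15 in the reported fit, 328 with upper quartile normalization, 882 with DESeq2, 41 higher and 323 lower with all libraries in 1 fit, 187 higher and 487 lower with separate shRNAs, 149 higher and 115 lower without CMP sh20 B, and 0 with the covariate or the block. The 15 calls also fell to 0 without CMP sh10 B or C, and without CMP Renilla A, B or D. Between cell types the count of 2 members was 1 with at least 10 counts in every library, where Ndn is not tested. Grb10 passed there without CMP sh20 B or LSK sh20 C, as given above. The count was 1 with shRNA and letter as replicate block, where the edgeR adjusted p of Ndn was 0.0733. With Renilla it was 1 to 2 and with sh20 0 to 1 in the leave-one-out fits, and with sh20 it was 1 without those 3 libraries. Leaving out CMP sh20 C leaves that arm with 1 library, which is assumed to vary like the other groups. The sh10 effect in CMP minus that in LSK gave 1 without a filter (Grb10), and sh20 against sh10 in LSK gave 1 with DESeq2 (Ndn). Log2 values that turned were Grb10 with Renilla without LSK Renilla A (-0.013, leave-one-out range to 0.33), Ndn for the difference of knockdown effects without CMP Renilla D (0.28, leave-one-out range from -5.83), Gnas for pooled knockdown in CMP with the covariate (0.052), and Ndn for pooled knockdown in LSK without LSK sh20 C (-0.16, leave-one-out range to 1.03) or the 3 libraries (-0.070). The causes were not tested. Cdkn1c kept its direction and its call for CMP against LSK over the shRNAs, with Renilla and with sh10 in every alternative that was run. The letters were not taken as pairs, since the deviations of the 9 pairs of libraries with the same shRNA and letter correlated by 0.00306 to 0.259. Genes at 0 to 3 counts were too low for the reported edgeR fits.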
